A study of Homo sapiens with 96 samples.

Results

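The experiment described here is the knockdown of the long non-coding RNA LUCAT1 in synchronised hTERT-RPE1 cells, an immortalised human line from retinal pigment epithelium that the labels call RPE1. Its members are the 16 libraries of the LUCAT1 knockdown table, out of 96 samples in the series. The comparison has 8 groups of 2 libraries: LNA GapmeRs against LUCAT1 in 4 groups and control LNA in 4, with 1 group of each kind harvested at each of the points labelled S0, S2, S4 and S6. The cells of all 16 libraries, controls included, had been held with 400 µM mimosine for 22 h and transfected with 130 to 150 pmol of LNA. No source used here gives the unit of the point labels. The sample labels call the RNA nascent, whereas the design text speaks of strand-specific RNA-seq of control and knockdown cells. Nothing says that the 2 libraries of a group came from separate cultures, so the p-values measure the spread between libraries, which may be technical. They also take all 16 libraries as independent, though deviations of same-numbered libraries were often correlated between groups (r from -0.28 to 0.81). The same control samples also served the knockdowns of MIAT and LINC00704, which are other long non-coding RNAs.

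LUCAT1 is an RNA first described as a transcript associated with lung cancer. It is known to be induced by oxidative and other stress through NRF2, the master regulator of antioxidant genes, and in human myeloid cells it restrains the interferon response. A GapmeR is an antisense oligonucleotide whose DNA centre lets RNase H1 cut the paired RNA, also in the nucleus. Mimosine is a plant amino acid that chelates iron and stops cells before or early in DNA replication. Cells released from it pass into S phase, when histone genes and the replication machinery are in use.

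Libraries held 9.11 to 19.2 M gene-assigned reads in the LUCAT1 knockdown and 12.8 to 20.9 M in the controls, recovered from the steps of the deposited RPKM values. RPKM here is scaled to gene span and library size. The line markers were present in all 16 libraries, with VIM (vimentin) between 132 and 474 RPKM and KRT18 (keratin 18) between 7.67 and 28.7 RPKM. The pigment enzymes TYR and TYRP1 reached at most 0.0417 and 0.0669 RPKM and the visual cycle enzyme LRAT at most 0.107 RPKM. Other genes of the pigment epithelium list were measurable: OTX2 reached 3.77 RPKM, MITF 0.882, SERPINF1 0.628 and BEST1 0.381, and 3 of the 14 listed passed the filter on low values. Of 18 listed markers of other cell types, 8 had rows and 1, the monocyte gene CD14, passed the filter on low values. Their summed level ran from 0.227 to 1.66 RPKM in knockdown libraries and from 0.154 to 0.584 RPKM in control libraries, while PTPRC (leukocytes) and EPCAM (epithelia) stayed at or below 0.0122 and 0.0456 RPKM; the part of these markers in the results was not tested. On the first principal component, which held 36.97% of the variance, the LUCAT1 libraries numbered 2 at S0 and at S2 lay at 61.6 and 49.9. The other 6 knockdown libraries lay between -0.45 and 17.9 and the controls between -44.9 and -2.66. Results were therefore also computed without those 2 libraries.

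The sequences upstream of the targeted gene, of its neighbour and of 3 named genes are shown first, as a description. No test linked them to any difference below. They are the 250 bases before each transcription start in RefSeq (GRCh38.p14), 5′ to 3′ on the strand of the gene, with motif matches in capitals. The 6 motifs were searched on both strands. TGACNNNGC is the core of the antioxidant response element, GAAA followed by any 2 bases and GAAA that of the interferon-stimulated response element (ISRE), TGANTCA the AP-1 site, TGACGTCA the cAMP response element, TTTGAA the cell cycle homology region and CCAAT the box of that name. TGACNNNGC and TGANTCA can overlap, and do so in the first of the following sequences.
LUCAT1, chr5:91314403-91314652, minus strand: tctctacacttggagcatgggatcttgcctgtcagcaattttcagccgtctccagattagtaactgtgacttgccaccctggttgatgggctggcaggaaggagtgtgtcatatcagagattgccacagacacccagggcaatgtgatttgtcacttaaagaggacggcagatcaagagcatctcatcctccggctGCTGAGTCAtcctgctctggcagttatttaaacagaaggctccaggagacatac
ARRDC3, chr5:91383318-91383567, minus strand: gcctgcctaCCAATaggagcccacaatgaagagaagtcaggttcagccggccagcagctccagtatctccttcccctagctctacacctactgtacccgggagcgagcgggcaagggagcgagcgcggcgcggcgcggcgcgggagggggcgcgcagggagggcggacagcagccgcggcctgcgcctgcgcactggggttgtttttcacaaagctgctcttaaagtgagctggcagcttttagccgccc
GCLM, chr1:93909431-93909680, minus strand: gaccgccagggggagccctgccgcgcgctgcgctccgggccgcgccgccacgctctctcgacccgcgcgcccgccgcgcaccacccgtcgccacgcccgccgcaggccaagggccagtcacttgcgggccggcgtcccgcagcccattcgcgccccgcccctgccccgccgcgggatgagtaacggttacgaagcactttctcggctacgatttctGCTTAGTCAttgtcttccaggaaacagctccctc
PARP14, chr3:122680589-122680838, plus strand: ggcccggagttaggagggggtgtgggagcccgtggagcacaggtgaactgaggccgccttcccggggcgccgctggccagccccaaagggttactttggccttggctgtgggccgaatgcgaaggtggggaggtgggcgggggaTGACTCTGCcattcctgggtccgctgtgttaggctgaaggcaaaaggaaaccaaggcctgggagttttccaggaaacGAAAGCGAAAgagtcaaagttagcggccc
HSPA5, chr9:125241344-125241593, minus strand: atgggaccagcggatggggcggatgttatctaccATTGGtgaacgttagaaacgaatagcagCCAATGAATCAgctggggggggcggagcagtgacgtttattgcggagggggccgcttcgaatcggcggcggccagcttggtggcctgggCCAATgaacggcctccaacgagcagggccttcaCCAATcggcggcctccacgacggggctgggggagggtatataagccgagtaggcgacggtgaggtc

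The capitals in LUCAT1 (GCTGAGTCA) and in GCLM (GCTTAGTCA) are matches of TGACNNNGC on the other strand. PARP14 holds both TGACTCTGC and GAAAGCGAAA, ARRDC3 holds CCAAT, and HSPA5 holds several copies of CCAAT on either strand and TGAATCA. In RefSeq promoter windows that also take in 50 bases after the start, 13.56% of 27305 held TGACNNNGC, 3.65% the ISRE core, 35.7% CCAAT, 15.43% TTTGAA, 1.98% TGACGTCA and 7.76% TGANTCA. Of the 41 genes named here as higher that had such a window, 4 held TGACNNNGC, 5 the ISRE core, 18 CCAAT, 2 TTTGAA, 0 TGACGTCA and 5 TGANTCA. Of the 39 named as lower, 6 held TGACNNNGC, 1 the ISRE core, 21 CCAAT, 2 TTTGAA, 3 TGACGTCA and 5 TGANTCA. The named genes were taken partly from gene lists, among them the interferon list. These counts therefore cannot be set against the shares over all windows. A match describes letters in a window and no more.

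LUCAT1 itself (GRCh38.p14 chr5:91302986-91314402, minus strand, annotated as antisense RNA) was lower in every knockdown library than in every control library. At S0 it stood at 0.133 and 0.337 RPKM in knockdown libraries, against 0.994 and 0.798 RPKM in controls. At S2 it stood at 0.178 and 0.379 RPKM, against 0.671 and 0.659 RPKM in controls. At S4 and S6 the knockdown libraries held 0.200, 0.25, 0.274 and 0.168 RPKM, against 0.440, 0.678, 0.856 and 0.645 RPKM in controls. LUCAT1 was thus a weak gene in these cells, and these values rest on 29 to 58 reads per knockdown library and 70 to 237 reads per control library. Its mean in the knockdown was 33.4% of the control mean, 0.240 ± 0.086 RPKM in knockdown and 0.718 ± 0.165 RPKM in control libraries (SD over the 4 points, n = 8 each). On the log2(RPKM + 0.25) scale LUCAT1 fell by 0.98 ± 0.14 (SE), with an adjusted p of 0.00128 by limma with Benjamini-Hochberg adjustment over all tested genes. An exact two-sided permutation test of LUCAT1, exchanging labels within points, gave p = 0.00154, the smallest that its 1296 arrangements allow. Only the controls carried LUCAT1 over the filter, and the call held when each of the 16 libraries was left out in turn.

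**Figure D1:**
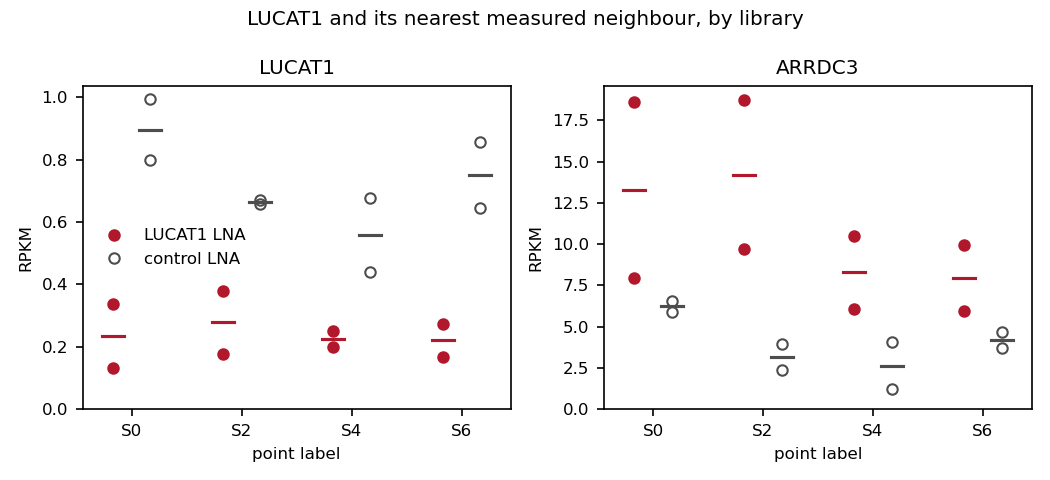
LUCAT1 and its neighbour ARRDC3 in RPKM at the points S0, S2, S4 and S6, with LUCAT1 LNA libraries as filled points left of the control LNA libraries as open points. All 8 knockdown values of LUCAT1 (0.133 to 0.379 RPKM) lie under all 8 control values (0.440 to 0.994 RPKM), while for ARRDC3 the knockdown is higher at each point and the ranges over all points overlap; short lines are means of 2 libraries.

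The gene nearest to LUCAT1 among the listed neighbours with a test was ARRDC3, 54.2 kb away, and it was higher in the knockdown. ARRDC3 encodes an alpha-arrestin, a family of adaptors that bring membrane receptors to ubiquitin ligases and endocytosis. It stood at 5.96 RPKM (lowest), 9.81 (median) and 18.7 (highest) in knockdown libraries, against 1.20, 4.00 and 6.58 RPKM in control libraries. The groups overlapped over all points, yet at each point both knockdown libraries were above both controls. The log2 difference of ARRDC3 was 1.39 ± 0.27 with an adjusted p of 0.00565 by limma, and 1.12 with an adjusted p of 0.0251 without the 2 libraries that stood apart. Of 7 neighbours tested, ARRDC3 was the one called in the main fit, where 19% of all tested genes were higher. The others had log2 differences of 0.36 (LYSMD3), 0.45 (CETN3), 0.37 (MBLAC2), 0.25 (POLR3G), -0.36 (NR2F1) and 0.04 (NR2F1-AS1), none of which passed the test, and NR2F1-AS1 turned to -0.12 with median scaling. MBLAC2 passed with no filter on low values (limma, adjusted p = 0.042) and with limma-voom (0.036). With a replicate block CETN3 passed as higher and NR2F1 as lower (limma, adjusted p = 0.022 and 0.023). CETN3 and MBLAC2 had no control library over the filter and POLR3G had 1. Without control number 2 at S4, 4 neighbours were higher. Among 5 alpha-arrestins tested, ARRDC2 was also called at 0.60 ± 0.21, but its call was lost in 13 of the 16 fits with a library left out. The genes whose profiles over the 16 libraries were most like that of LUCAT1 were LINC00452, SLC26A4 and MYOF, each with a Pearson r of 0.92 on log2 values; all 16 points share the division into knockdown and control.

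Across the transcriptome many genes differed by modest amounts. Of 9870 genes that reached 0.5 RPKM in 2 or more libraries, 2680 (27.2%) were called for the mean over the 4 points at an adjusted p under 0.05, and 4116 had an unadjusted p under 0.05. Of the 2680 calls 1879 (19% of all tested) were higher and 801 (8.12%) were lower, and 2585 kept 1 sign at all 4 points. The median log2 difference of all tested genes was 0.11. The differences and calls of the main fit are against 0 and do not allow for that shift. When libraries were scaled to their medians, 895 genes were called higher and 1390 lower, so that 39.2% of the calls were higher, against 70.1% as deposited; with quantile normalization 922 were higher and 1154 lower. The median size of the called genes was 0.59 on the log2 scale for the higher and -0.60 for the lower. A log2 difference of 1 or more was reached by 222 of the higher genes, and 52 of the lower genes fell by that much.

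Groups that did not overlap were less common than calls. All 8 knockdown libraries were above all 8 controls for 4.18% of tested genes and below them for 0.932%, and 410 of the higher and 90 of the lower calls were of this kind. Of the higher calls 499 had under 2 control libraries over the filter, and 53 of the lower calls had under 2 knockdown libraries over it, so these had to differ to be tested. Without the 2 libraries that stood apart, 1034 genes were called, 758 higher and 276 lower, and these included 36.6% of the calls from all libraries. Leaving out a single library gave between 1446 calls, without LUCAT1 number 2 at S2, and 3770, without LUCAT1 number 3 at S0. Without control number 2 at S0 there were 1487 calls, and the lower calls numbered 403 there and likewise 403 without LUCAT1 number 2 at S2. Without a control at S2 (either number), number 1 at S4, or number 1 at S6, there were 1659, 1589, 1729 and 1513 calls, and 1677 and 1750 without LUCAT1 number 2 at S0 and number 3 at S4.

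**Figure D2:**
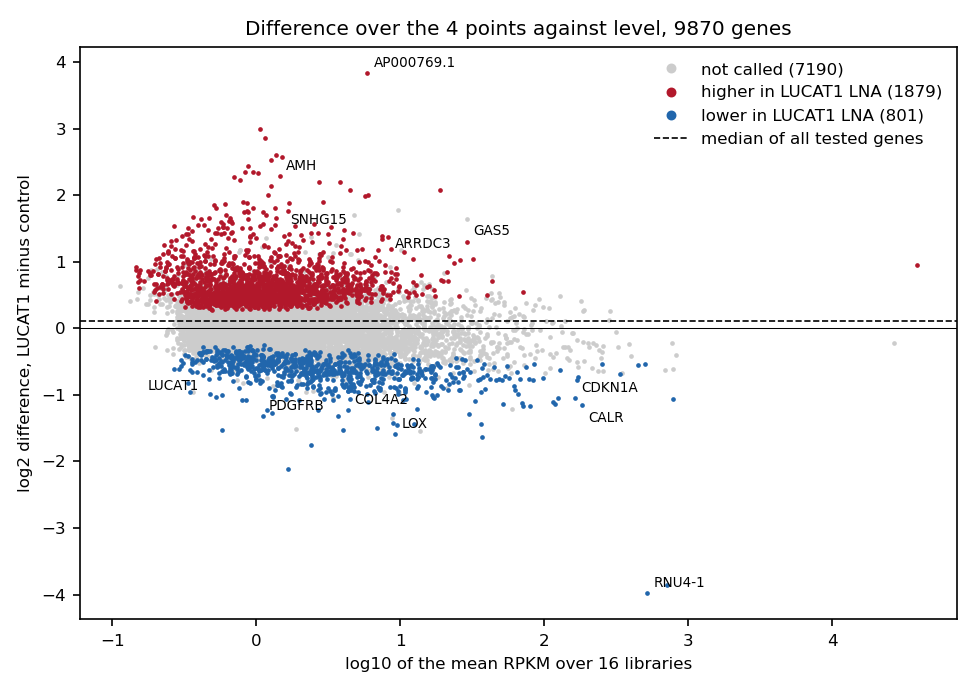
Log2 difference, LUCAT1 minus control, over the 4 points (y axis) against the log10 of the mean RPKM over 16 libraries (x axis) for 9870 tested genes, with the 1879 genes called higher and the 801 called lower in colour. The dashed line is the median of all tested genes at 0.11.

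The calls were unequally spread over levels, while most gene classes given here were near the share of higher calls over all tested genes. That share was 19%, and 8.12% of all tested genes were lower. Among the 2468 genes in the lowest quartile of mean level 600 (24.3%) were higher and 103 (4.17%) lower. In the highest quartile 232 (9.4%) were higher and 352 (14.3%) lower. Protein-coding genes (8642 tested) gave 1582 higher (18.3%) and 732 lower (8.47%) calls with a median log2 difference of 0.10. Among 408 lincRNAs 84 (20.6%) were higher and 25 (6.13%) lower, and among 311 antisense RNAs 64 (20.6%) were higher and 20 (6.43%) lower. Of 170 processed pseudogenes, 69 (40.6%) were higher and 7 lower, and their reads can be shared with parent genes of near-identical sequence.

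**Figure D3:**
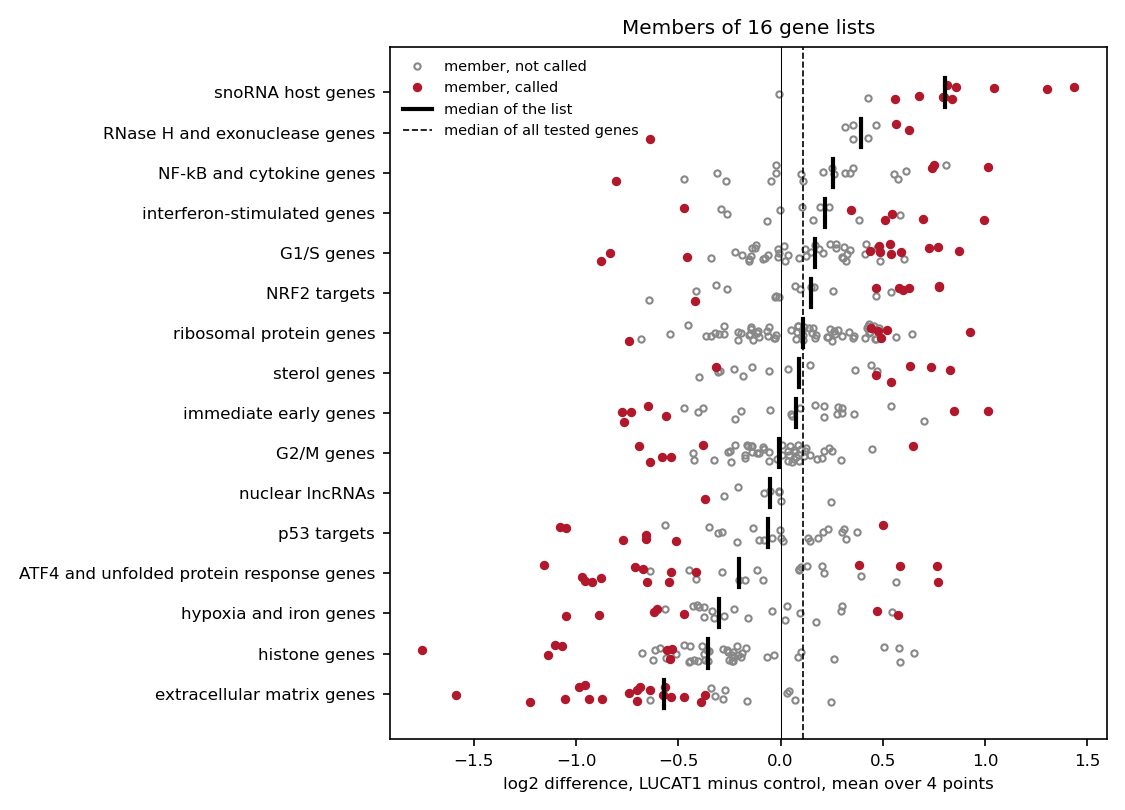
Log2 differences, LUCAT1 minus control, of the tested members of 16 gene lists, 1 list per row, with called members filled, other members open and the median of each list as a black bar. The medians range from -0.57 for extracellular matrix genes to 0.80 for snoRNA host genes, around an all-gene median of 0.11 (dashed).

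Extracellular matrix genes were the list with the most members lower. Of 29 tested, 18 were lower and 0 higher, with a median log2 difference of -0.57, against 8.12% lower calls and a median of 0.11 over all genes. LOX, the enzyme that cross-links collagen and elastin, stood at 1.67, 5.15 and 7.38 RPKM (lowest, median and highest) in knockdown libraries, against 9.82, 13.0 and 21.8 RPKM in controls. Every knockdown library was below every control for LOX, which fell by 1.59 ± 0.27 on the log2 scale (limma, adjusted p = 0.00293). The basement membrane collagen gene COL4A2 likewise had no overlap, at 1.6 to 3.90 RPKM in knockdown and 3.93 to 10.8 RPKM in control libraries, and fell by 1.23 ± 0.18 (limma, adjusted p = 0.0015). MMP14, a membrane-bound matrix metalloprotease, fell by 0.98 ± 0.23, and without the 2 libraries that stood apart its adjusted p was 0.0572. In all, 11 matrix genes were lower and 0 higher without those libraries, 13 were lower without control number 2 at S0, and 19 were lower with median scaling. In bulk RNA, fewer cells of a type and less RNA per cell cannot be told apart.

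The 14 lowest genes were taken from the called genes of at least 1 RPKM with 1 sign at all points. Besides LOX, they included a growth factor receptor, a secreted ligand and several non-coding RNAs. PDGFRB, the receptor for platelet-derived growth factor BB, stood at 0.193, 0.562 and 0.792 RPKM in knockdown libraries, against 1.06, 1.72 and 2.54 RPKM in controls. All knockdown values of PDGFRB were below all controls, and it fell by 1.32 ± 0.15 (limma, adjusted p = 0.000358). GDF6, a bone morphogenetic protein ligand, averaged 4.82 ± 1.87 RPKM in knockdown and 13.0 ± 4.70 RPKM in control libraries, with a log2 difference of -1.42 ± 0.27. C1QL1, a secreted C1q-like protein, fell by 1.31 ± 0.14, with no overlap between its ranges of 1.24 to 2.82 RPKM in knockdown and 4.08 to 7.54 RPKM in control libraries. TGFB2-AS1, a non-coding RNA opposite the TGFB2 gene, had a log2 difference of -1.49 ± 0.32 (2.38 to 10.3 RPKM in knockdown, 5.35 to 22.5 RPKM in control libraries). Whether counting used strand is not stated, so reads of TGFB2-AS1 and its partner may not have been told apart. Among other non-coding RNAs, AC010776.2 fell by 1.52 ± 0.17 and AC117402.1, which is outside the 14 lowest, by 1.23 ± 0.20. Each had all knockdown libraries below all controls.

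Members of the joint list of stress-response genes moved in both directions. The list that joins ATF4 targets and unfolded protein response genes had 31 members tested. Of these, 11 were lower and 4 higher (8.12% and 19% over all tested genes), with a median of -0.21. CALR (calreticulin, a calcium-binding chaperone) stood at 64.3, 121 and 144 RPKM in knockdown libraries, against 153, 254 and 330 RPKM in controls, with no overlap. CALR fell by 1.16 ± 0.20 (limma, adjusted p = 0.00302). HSPA5, the chaperone BiP, averaged 43.5 ± 10.3 RPKM in knockdown and 81.2 ± 13.3 RPKM in control libraries and fell by 0.92 ± 0.18, and the disulfide isomerase PDIA4 fell by 0.97 ± 0.17. SLC7A5, a transporter of large neutral amino acids and an ATF4 target, was lower too, at -0.96 ± 0.23. In the other direction, TRIB3, a pseudokinase induced by ATF4 and CHOP, stood at 0.666 to 1.56 RPKM in knockdown and 0.332 to 0.535 RPKM in control libraries with no overlap, a log2 difference of 0.77 ± 0.12. CEBPG, a partner of ATF4, rose by 0.77 ± 0.16, also without overlap, and ASNS (asparagine synthetase) rose by 0.58 ± 0.12. PSAT1, an enzyme of serine synthesis, rose by 0.39 ± 0.11, a call lost in 3 of the 16 fits with a library left out and with median scaling. Leaving out the 2 libraries that stood apart gave 6 lower and 3 higher members; without control number 2 at S0, 7 were lower.

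CDKN1A, the gene of the cyclin-dependent kinase inhibitor p21 and a classical p53 target, was lower in all knockdown libraries. It stood at 64.6, 116 and 144 RPKM in knockdown libraries, against 168, 225 and 266 RPKM in controls, and fell by 1.05 ± 0.19 (limma, adjusted p = 0.00437). Over 28 p53 targets tested, 6 were lower and 1 higher (8.12% and 19% over all tested genes), and the median was -0.06. GDF15, a secreted stress cytokine, averaged 2.06 ± 1.19 RPKM in knockdown and 4.75 ± 2.89 RPKM in control libraries (log2 difference -1.08 ± 0.26), and BAX, which permeabilises mitochondria in apoptosis, had a log2 difference of -0.77 ± 0.21. PLK3 at -0.66 and GADD45A at 0.50 were called, but both calls were lost in 10 of the 16 fits with a library left out. Without the 2 libraries that stood apart 2 members were lower, and the adjusted p was 0.0688 for GDF15 and 0.0721 for BAX; without control number 1 at S6 alone, 2 were lower.

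Of 26 genes responsive to hypoxia or iron, 5 were lower and 2 higher (8.12% and 19% over all tested genes), with a median of -0.30. VEGFA, the vascular growth factor, stood at 4.11, 5.58 and 11.5 RPKM in knockdown libraries, against 6.13, 11.4 and 19.4 RPKM in controls, with overlap. VEGFA fell by 0.89 ± 0.21 (limma, adjusted p = 0.0107; 0.0526 without the 2 libraries that stood apart). CA9 (carbonic anhydrase 9) had -1.05 ± 0.30, HK2 (hexokinase 2) -0.60 ± 0.17 and SLC2A1 (glucose transporter 1) -0.62 ± 0.20; these calls were lost in 5, 6 and 12 of the 16 fits with a library left out. SLC2A3, glucose transporter 3, rose by 0.57 ± 0.12, the opposite direction to SLC2A1. No hypoxia gene was called lower and 2 were called higher without the 2 libraries that stood apart; without control number 2 at S0 alone 1 was lower, and without LUCAT1 number 3 at S0 alone 9 were.

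The interferon list had 16 tested members, of which 5 were higher and 1 lower, with a median of 0.22; over all genes 19% were higher. DTX3L, a ubiquitin ligase that works with PARP9, stood at 3.13, 4.21 and 7.44 RPKM in knockdown libraries, against 1.73, 1.99 and 2.89 RPKM in controls. DTX3L rose by 1.00 ± 0.19 (limma, adjusted p = 0.0047), and PARP14, an ADP-ribosyltransferase of the same interferon-induced group, rose by 0.70 ± 0.14, with 1.56 to 3.14 RPKM in knockdown and 0.969 to 1.43 RPKM in control libraries. Neither gene had overlapping groups. SAMD9 at 0.55 and IFIT5 at 0.51 were called, each call being lost in 13 of the 16 fits with a library left out, and STAT2, a transcription factor of the pathway, was lower at -0.47, lost in 11. In the fit without the 2 libraries that stood apart 2 members were higher and 0 lower; leaving out control number 1 at S0 alone also left 2 higher, and median scaling left 2 higher and 2 lower.

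Among 22 NF-kB and cytokine genes 3 were higher and 1 lower, with a median of 0.26, and both shares were below those of all tested genes (19% higher, 8.12% lower). The chemokine gene CXCL8 averaged 7.52 ± 2.83 RPKM in knockdown and 3.94 ± 2.33 RPKM in control libraries, a log2 difference of 1.02 ± 0.31 whose call was lost in 10 of the 16 fits with a library left out. CXCL3 at 0.75 and CCL20 at 0.74, also chemokines, lost theirs in 11 and 10, and neither had a control library over the filter, so each had to differ to be tested. IL11, a cytokine of the IL-6 family, fell by 0.81 ± 0.18 (7.57 to 21.7 RPKM in knockdown, 13.2 to 53.8 RPKM in control libraries; limma, adjusted p = 0.00996) and kept its call in all 16. No member of the list was higher without the 2 libraries that stood apart or without control number 1 at S0 alone; median scaling gave 0 higher and 2 lower, and leaving out LUCAT1 number 3 at S0 gave 6 higher.

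Of 21 NRF2 targets tested, 6 were higher and 1 lower (19% and 8.12% over all tested genes), with a median of 0.15. GCLM, the regulatory subunit of the enzyme that begins glutathione synthesis, stood at 1.70, 2.29 and 4.83 RPKM in knockdown libraries, against 0.975, 1.31 and 1.94 RPKM in controls, with overlap. GCLM rose by 0.78 ± 0.18 (limma, adjusted p = 0.0116). SLC7A11, the cystine importer, rose by 0.77 ± 0.20, with an adjusted p of 0.0664 without the 2 libraries that stood apart, while TXN (thioredoxin) at 0.63 and OSGIN1 at 0.60 lost their calls in 11 and 9 of the 16 fits with a library left out. SLC48A1, a haem transporter, fell by 0.42 ± 0.11, with an adjusted p of 0.0512 in that fit. NQO1 and HMOX1, 2 of the best-known NRF2 targets and singled out after their values were seen, had log2 differences of -0.02 and 0.07 and were not called. Members higher numbered 2 with median scaling, 2 without LUCAT1 number 2 at S2 and 1 without both libraries that stood apart.

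Of 26 immediate early genes 5 were lower and 2 higher (8.12% and 19% over all tested genes), with a median of 0.08. The balance turned on the scaling, with 6 lower and 1 higher under median scaling (median -0.08) and 3 lower and 4 higher under quantile normalization (median 0.07). KLF4, a zinc finger transcription factor, rose by 0.85 ± 0.16 (1.07 to 2.47 RPKM in knockdown, 0.538 to 1.12 RPKM in control libraries; limma, adjusted p = 0.00473), and its relative KLF2 fell by 0.77 ± 0.20. EGR1 fell by 0.65 ± 0.17, a call lost in 1 of the 16 fits with a library left out. DUSP6, a phosphatase that inactivates ERK, at 1.01, JUND at -0.78 and CYR61 at -0.73 lost theirs in 8, 12 and 10. The list had 1 member higher and 0 lower without the 2 libraries that stood apart; leaving out control number 2 at S2 alone left 1 lower. In that first fit the adjusted p was 0.0819 for KLF2 and 0.0646 for EGR1.

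Cell cycle genes did not move as a block. Of 51 G1/S genes 9 were higher and 3 lower, with a median of 0.17. Both shares were below those of all tested genes (19% higher, 8.12% lower), and median scaling left 4 higher and 3 lower. UNG, the uracil-DNA glycosylase, stood at 2.41, 2.83 and 5.14 RPKM in knockdown libraries, against 1.5, 1.67 and 2.09 RPKM in controls. SLBP, the protein that binds the stem-loop of histone mRNAs, stood at 3.79 to 7.13 RPKM in knockdown and 2.39 to 3.68 RPKM in control libraries. Neither had overlapping groups, and UNG rose by 0.87 ± 0.18 and SLBP by 0.77 ± 0.17 (limma, adjusted p = 0.00656 and 0.00865). CCNE2 (cyclin E2) rose by 0.72 ± 0.16 and MCM6, a subunit of the replicative helicase, by 0.59 ± 0.12. TK1 (thymidine kinase 1) averaged 11.7 ± 3.73 RPKM in knockdown and 21.0 ± 4.15 RPKM in control libraries and fell by 0.88 ± 0.21. LIG1 (DNA ligase 1) at -0.83 and POLA2, a subunit of DNA polymerase alpha, at -0.46 lost their calls in 6 and 9 of the 16 fits with a library left out. Without the 2 libraries that stood apart 4 members were higher and 0 lower, and TK1 had an adjusted p of 0.0603. Leaving out control number 2 at S0 alone left 4 higher and 1 lower, and leaving out LUCAT1 number 3 at S0 gave 17 higher.

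Of 52 G2/M genes 5 were lower and 1 higher, with a median of -0.01. The share lower was near the 8.12% of all tested genes, and the share higher was below their 19%. PRC1, which bundles microtubules of the central spindle, stood at 0.273 to 0.687 RPKM in knockdown libraries, under the 0.702 to 1.17 RPKM of the controls, and fell by 0.69 ± 0.15. PSRC1, a microtubule regulator of mitosis, fell by 0.64 ± 0.14. KIF20A at -0.58 and ECT2 at 0.65, both genes of cytokinesis, lost their calls in 9 and 12 of the 16 fits with a library left out. Median scaling gave 10 lower and 0 higher, and 2 were lower without the 2 libraries that stood apart or without control number 2 at S0 alone.

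Of 48 histone genes 7 were lower and 0 higher (8.12% and 19% over all tested genes), with a median log2 difference of -0.35. That median was -0.33 at S0, 0.09 at S2, -0.05 at S4 and -1.09 at S6. Relative to each gene's mean over the 8 controls, the median histone gene stood at 0.23 and 0.41 on the log2 scale in the S6 knockdown libraries, against 1.00 and 1.64 in the S6 controls. At S4 it stood at 0.27 and 0.99 in knockdown and 0.25 and 0.99 in control libraries. At S0 it stood at -2.0 and -1.76 in knockdown, against -1.72 and -1.08 in control libraries. The libraries were thus apart at S6, less so at S0 and mixed at S2 and S4, but no gene passed the test for an effect that differed among points. Over the mean, HIST1H4A (75.2 ± 25 RPKM in knockdown and 164 ± 53.2 RPKM in control libraries) fell by 1.13 ± 0.18 and HIST2H2AB (73.2 ± 41.2 RPKM in knockdown and 157 ± 87.8 RPKM in control libraries) by 1.10 ± 0.16. HIST1H4J fell by 1.75 ± 0.29 and HIST1H4E by 1.07 ± 0.24, HIST1H4E with an adjusted p of 0.0535 without the 2 libraries that stood apart. Histone genes are near-identical copies, so reads may be split among them. With the 2 libraries that stood apart left out 3 members were lower, without control number 2 at S0 alone 4 were, median scaling gave 12 lower, and quantile normalization gave 4 lower and 1 higher with a median of -0.11.

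**Figure D4:**
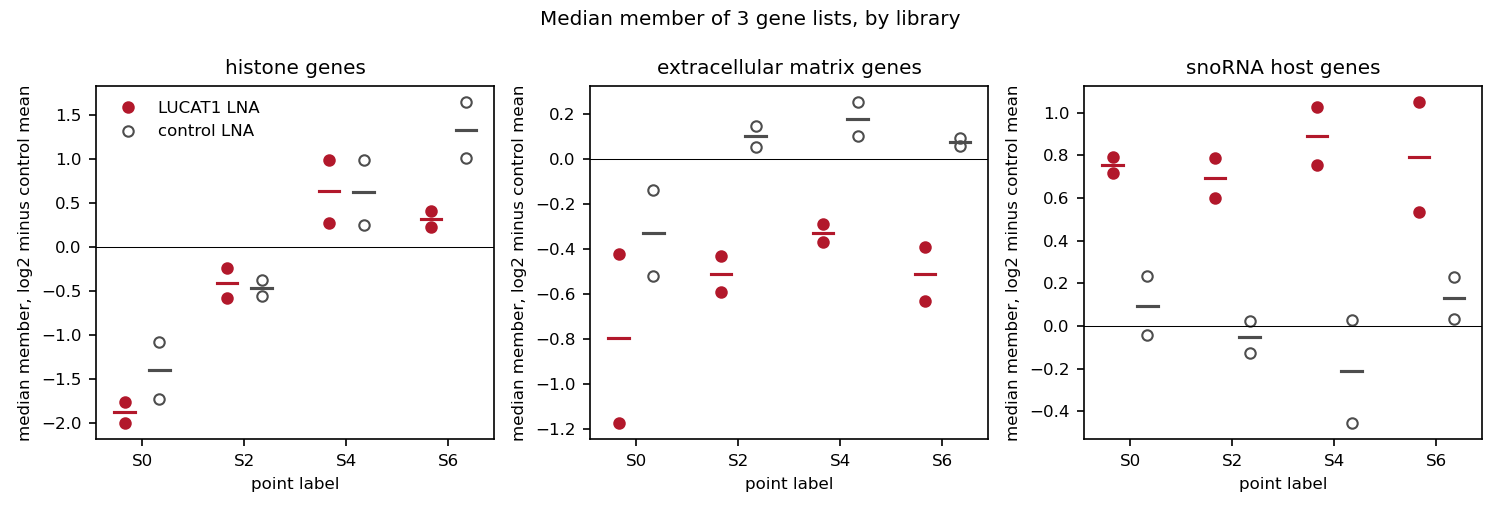
Median member of the extracellular matrix, snoRNA host and histone lists in each library, as log2(RPKM + 0.25) minus the mean of that gene over the 8 control libraries, at S0 to S6, with LUCAT1 LNA left of control LNA. Matrix genes run from -1.17 to -0.29 in knockdown and -0.52 to 0.25 in control libraries, snoRNA host genes from 0.53 to 1.05 in knockdown and -0.45 to 0.23 in control libraries, and the histone medians are farthest apart at S6; short lines are means of 2 libraries.

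Of 18 genes of sterol synthesis and uptake 5 were higher and 1 lower (19% and 8.12% over all tested genes), with a median of 0.09. HMGCS1, an early synthase of the pathway, stood at 1.11, 1.20 and 1.59 RPKM in knockdown libraries, against 0.495, 0.707 and 1.05 RPKM in controls, with no overlap. HMGCS1 rose by 0.63 ± 0.11 (limma, adjusted p = 0.00389). The later enzymes SC5D and MSMO1 rose by 0.83 ± 0.15 and 0.73 ± 0.17. FDFT1 (squalene synthase), at -0.32, lost its call in 7 of the 16 fits with a library left out. The counts were 6 higher and 0 lower without the 2 libraries that stood apart, and 3 were lower without LUCAT1 number 3 at S0.

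Most host genes of small nucleolar RNAs were higher, against 19% higher, 8.12% lower and a median of 0.11 over all tested genes. Of 12 tested, 10 were higher and 0 lower, with a median of 0.80, and 9 were higher with median scaling and 9 without the 2 libraries that stood apart. These genes carry snoRNAs in their introns, and several of their spliced transcripts are known to be short-lived. SNHG15 stood at 5.78, 6.58 and 10.6 RPKM in knockdown libraries, against 1.55, 2.52 and 3.4 RPKM in controls. GAS5 stood at 22.8, 43.0 and 62.1 RPKM in knockdown libraries, against 6.61, 18.1 and 22.0 RPKM in controls. No knockdown library of either gene fell within the control range. SNHG15 rose by 1.44 ± 0.14 and GAS5 by 1.30 ± 0.27 (limma, adjusted p = 0.000237 and 0.00741). ZFAS1 rose by 0.86 ± 0.23, a call lost with a replicate block (limma, adjusted p = 0.053). SNHG1 rose by 1.04 ± 0.29, a call lost in 2 of the 16 fits with a library left out. That call was also lost without the 2 libraries that stood apart, where the log2 difference of SNHG1 was 1.06.

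Few ribosomal protein genes, many of which also carry snoRNAs, were called. Of 69 tested, 5 were higher and 1 lower, both smaller shares than over all tested genes, and the median was 0.11. Median scaling gave 2 higher and 4 lower with a median of -0.05, and quantile normalization 13 higher and 1 lower with a median of 0.29. RPL21 (2.09 to 5.98 RPKM in knockdown, 0.942 to 2.07 RPKM in control libraries) rose by 0.93 ± 0.19 and RPS3A by 0.52 ± 0.11. RPL41 had a log2 difference of -0.74 ± 0.22, a call lost in 6 of the 16 fits with a library left out. Genes of this family have many processed copies, and the counting could divide reads among them. Leaving out control number 1 at S2 left 2 higher, leaving out control number 2 at S4 gave 12, and 2 were higher and 1 lower without the 2 libraries that stood apart.

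Of 8 genes of RNase H and nuclear RNA decay 2 were higher and 1 lower (19% and 8.12% over all tested genes). Their median was 0.39. DIS3, a catalytic subunit of the exosome, rose by 0.63 ± 0.16 (2.07 to 5.26 RPKM in knockdown, 1.38 to 2.59 RPKM in control libraries), and MTREX, the helicase that feeds the exosome, rose by 0.57 ± 0.14. RNASEH2C, a subunit of RNase H2, fell by 0.64 ± 0.16. RNASEH1, the enzyme that GapmeRs use and chosen after its value was seen, had a log2 difference of 0.32 ± 0.18 (limma, adjusted p = 0.194). Without the 2 libraries that stood apart 0 members were higher and 1 lower, with an adjusted p of 0.0768 for DIS3 and 0.055 for MTREX; without LUCAT1 number 3 at S0 there were 6 higher. Of 9 abundant nuclear long non-coding RNAs, MEG3 was called lower at -0.37, a call lost in 10 of 16 fits. Among 3 pigment epithelium genes SERPINF1 was called higher at 0.45, lost in 9 of the 14 fits that tested it, and among 6 line markers KRT8 lower at -0.52, lost in 14. CD14, the marker of other cell types that was tested, was called at 0.92 (0.037 to 1.28 RPKM in knockdown, 0 to 0.304 RPKM in control libraries) and lost its call in 11 of 16. Neither SERPINF1 nor CD14 had a control library over the filter, so each had to differ to be tested.

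The largest falls were in the U4 small nuclear RNA genes, which encode the RNA that pairs with U6 in the spliceosome. RNU4-1 stood at 40.5 and 124 RPKM at S0 in knockdown libraries, against 578 and 1119 RPKM in controls. At S2 it stood at 32.0 and 8.83 RPKM in knockdown, against 937 and 803 RPKM in control libraries, and at S4 at 42.4 and 10.4 RPKM, against 933 and 766 RPKM. At S6 the knockdown libraries held 1710 and 20.0 RPKM and the controls 258 and 969 RPKM. The knockdown libraries were thus far below every control, except 1 at S6 that was above them all. The log2 difference of RNU4-1 was -3.98 ± 0.74 (limma, adjusted p = 0.00466), and that of its near-identical copy RNU4-2 was -3.85 ± 0.69. Over all 10 small nuclear RNA genes tested 5 were lower and 0 higher (8.12% and 19% over all tested genes), with a median of -1.36. RNU4-1 differed by -4.35 in the MIAT knockdown and by -1.94 in the LINC00704 knockdown against the same controls. Such RNAs are short and carry no poly(A) tail, and no source used here says how fragments were selected by size.

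**Figure D5:**
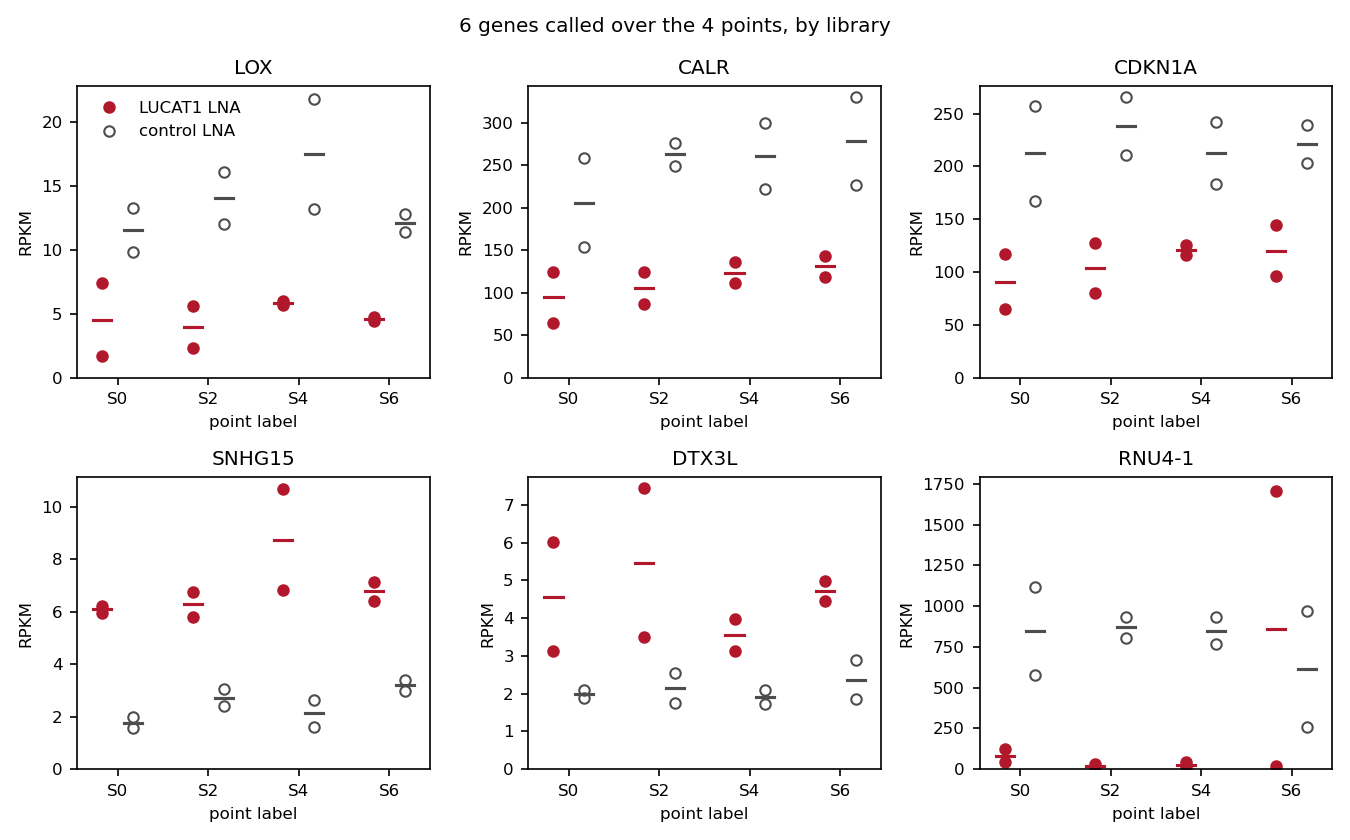
RPKM (linear axes from 0) in each library of LOX, CALR, CDKN1A, SNHG15, DTX3L and RNU4-1 at S0 to S6, with LUCAT1 LNA libraries (filled) left of control LNA libraries (open). LOX, CALR and CDKN1A lie lower in every knockdown library, SNHG15 and DTX3L lie higher in every one, and RNU4-1 is lower in 7 of 8; short lines are means of 2 libraries.

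The 14 highest called genes of at least 1 RPKM included weak genes that were near 0 in the controls. Others among them were not near 0 there. RN7SKP203 averaged 33.2 RPKM in knockdown and 4.94 RPKM in control libraries, and RN7SL504P 6.26 and 1.44 RPKM, both with overlap. For RN7SKP203, LUCAT1 number 3 at S2 and at S4 held 353 and 437 reads. The other knockdown libraries held 38 to 114 reads of RN7SKP203 and the controls 13 to 53. BICD1P1, a processed pseudogene, stood at 1.32, 1.90 and 3.87 RPKM in knockdown libraries, against 0, 0.0221 and 0.109 RPKM in controls, which is 20 to 79 reads against 0 to 2 reads. ACTBP14, a pseudogene of beta-actin, stood at 1.33 to 4.18 RPKM in knockdown and 0 to 0.197 RPKM in control libraries. Neither had a control over the filter, so each had to differ to be tested; the fitted log2 differences were 2.99 ± 0.16 and 2.86 ± 0.19 and depend on the pseudocount. AP000769.1 spread the most, from 0.318 to 39.7 RPKM in knockdown against 0.0201 to 0.187 RPKM in control libraries (3.83 ± 0.78). It had no control library over the filter, and RPS2P32 and AMH had 1 each, so these too entered the test only through the knockdown. RPS2P32, a copy of a ribosomal protein gene, rose by 2.01 ± 0.15. AMH, which encodes anti-Müllerian hormone, rose by 2.29 ± 0.43, with 0.713 to 6.43 RPKM in knockdown and 0.0258 to 0.556 RPKM in control libraries. The lincRNA FOXD2-AS1, with 6 control libraries over the filter, averaged 4.98 ± 4.73 RPKM in knockdown and 0.857 ± 0.442 RPKM in control libraries. FOXD2-AS1 rose by 1.90 ± 0.40, with overlap, and by 1.37 without the 2 libraries that stood apart. Its knockdown libraries held 33 to 672 reads and its control libraries 14 to 59.

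At single points, where 2 libraries met 2, few genes passed. The test called 5 genes at S0 (0.0507% of those tested), 2 at S2 (0.0203%), 10 at S4 (0.101%) and 3 at S6 (0.0304%), all higher. Unadjusted p-values under 0.05 numbered 1070, 2053, 1144 and 996 at these points. BICD1P1 and ACTBP14 were called at each point. RPS2P32, SLC25A1P1 and VHLL were the others at S0, and DNASE1L2 was the other at S6; SLC25A1P1 and VHLL were named after the counts were seen. At S4 the list held SNHG15 and CYP1A1, a xenobiotic-metabolising enzyme that had 1 control library over the filter, with 0.126 to 2.12 RPKM in knockdown and 0.0887 to 0.667 RPKM in control libraries over all points. A test of whether the effect differed among points called 0 genes (0%) by limma, with 39 at an unadjusted p under 0.05, and limma-voom on recovered reads also called 0. AC007952.4 had the smallest p of that test, 0.00108 unadjusted.

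The asynchronous cells give the same knockdown in other libraries, 3 with LUCAT1 LNA and 2 with control LNA, scaled separately, so values are set side by side without a test between the tables. LUCAT1 held 0.311, 0.128 and 0.124 RPKM in knockdown libraries there, against 0.469 and 0.495 RPKM in controls. Of 9550 genes tested in asynchronous cells 20 (0.209%) were called by limma, all higher, with 2100 at an unadjusted p under 0.05 and a median log2 difference of -0.10. Of those 20 genes 18 were tested in synchronised cells, and 100% of the 18 were called higher there too, which is 0.743% of the 2422 synchronised calls tested in both. By sign, 1370 of 1708 higher calls (80.2%) and 681 of 714 lower calls (95.4%) had the same direction in asynchronous cells, where 41.4% of the 8821 genes tested in both were positive.

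Gene groups differed in how they compared. Matrix genes had a median log2 difference of -0.57 in synchronised and -1.13 in asynchronous cells, and histone genes had -0.35 in synchronised and -1.26 in asynchronous cells. LOX had a log2 difference of -1.59 in synchronised and -0.99 in asynchronous cells, and COL4A2 had -1.23 in synchronised and -1.76 in asynchronous cells. The snoRNA host genes had a median of 0.80 in synchronised and 0.06 in asynchronous cells, and SNHG15 had 1.44 in synchronised and 0.11 in asynchronous cells. CDKN1A had -1.05 in synchronised cells and 0.51 in asynchronous cells, where it stood at 58.4, 44.3 and 45.8 RPKM in knockdown libraries, against 36.1 and 33.1 RPKM in controls. The median of p53 targets was -0.06 in synchronised and 0.84 in asynchronous cells. RNU4-1 had 0.29 in asynchronous cells, with an adjusted p of 0.396. None of the members named in this paragraph was called in asynchronous cells, and the differences between the tables were not tested.

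The other knockdowns in synchronised cells share the control samples, so common values can come from those controls. The MIAT knockdown had 7.63% of tested genes called, 4.84% higher and 2.79% lower, and the LINC00704 knockdown 0.0212%, all lower. SNHG15 had 1.44 in the LUCAT1, 1.15 in the MIAT and 0.39 in the LINC00704 knockdown, and GAS5 had 1.30, 1.32 and 0.61. BICD1P1 had 2.99 in the LUCAT1 and 3.55 in the MIAT knockdown. ARRDC3 had 1.39, 0.20 and 0.47, FOXD2-AS1 1.90, 0.00 and -0.06, DTX3L 1.00, -0.11 and 0.31, and UNG 0.87, -0.08 and -0.05 in the LUCAT1, MIAT and LINC00704 knockdowns. LOX had -1.59, -0.79 and -0.98. LUCAT1 itself differed by 0.05 in the MIAT and 0.56 in the LINC00704 knockdown. These values are descriptions of 3 comparisons and not tests between them.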

How the data were processed

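RNA from synchronised LUCAT1 knockdown and control cells was sequenced on 16 libraries. The authors deposited RPKM values per gene and, for most genes, a gene length; per the submitters' processing notes the tools were STAR 2.5.3, featureCounts 1.6.1 and edgeR, with hg38, and no roles are given. For genes with a deposited length, the nonzero RPKM values with the fewest reads were checked, 5558 to 8062 in each of the 16 libraries. Of these, 100% were whole multiples of 1 read (tolerance 0.05 reads). The size of 1 read was chosen to make that share highest, so the share is not a separate check. That size gave the read numbers. The deposited gene lengths lay within 5% of the RefSeq gene span for 70.19% of 14027 genes, so RPKM is per gene span. The column numbers of the knockdown libraries run up to 3 where the sample titles have 1 and 2, and columns were assigned to groups only.

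Genes that reached 0.5 RPKM in 2 or more libraries were tested on log2(RPKM + 0.25) by limma 3.58.1 (R 4.3.3), with 1 mean per arm and point, eBayes with trend and Benjamini-Hochberg adjustment over all tested genes. A fold on this scale understates changes of weak genes. No count test was run on RPKM as the main result. On simulated data with known changes the fit over the 4 points recovered 82.5% of 97 genes changed by 1 on the log2 scale. It recovered 99% of 96 changed by 2, with 7 false calls among 9287 genes. Far fewer genes were changed there than were called here (2680 of 9870). The 7 false calls are therefore no error rate for the calls in these data. Asynchronous, MIAT and LINC00704 tables were fitted separately in the same way. Exact permutation was used for LUCAT1 alone. The alternatives were other pseudocounts, filters, scalings, a replicate block, no trend, single points fitted alone and each library left out; those added after seeing the data were the fit without the 2 libraries that stood apart, limma-voom on recovered reads and protein-coding genes of at least 1 RPKM.

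Named genes were LUCAT1 and its neighbours, the 14 highest and 14 lowest called genes of at least 1 RPKM with 1 sign at all points, up to 4 called genes per list and direction, up to 5 per point, the 6 smallest p among points and the 4 most changed long non-coding RNAs each way. Some genes that the rule names are not reported here. The experiment, the gene lists and the rule were chosen with earlier results of these data known. Promoter sequences are from RefSeq GRCh38.p14, and 84 of 129 named genes had an entry. Figures were drawn with matplotlib 3.10.9.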

Additional observations from a re-analysis of the deposited data

Results flagged for a closer look

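In the 8 libraries of an arm, a highest or lowest value far from the rest was looked for in 258 combinations of named gene and arm. It was found in 29 combinations. The rule gives about 1 in 20 by chance for independent values with a normal spread. Here the values were RPKM on a linear scale, and the genes share libraries, so the 29 cannot be set against that rate. The 4 points were pooled in each arm, so a point effect can also produce such a value. No explanation was tested.

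In the knockdown, library 1 at S6 was the highest for RNU4-1 at 1710 RPKM (next 124), RNU4-2 at 2580 (next 156), BRWD1P1 at 2.4 (next 0.487), TGFB2-AS1 at 10.3 (next 3.07), HIST1H4E at 1340 (next 689), RPL41 at 27.7 (next 16.2) and SERTAD4-AS1 at 3.28 (next 2.11), and the lowest for ASNS at 0.611 (next 1.01). Library 2 at S6 was the highest for RN7SL504P at 12.9 RPKM (next 7.25), ARRDC2 at 4.66 (next 2.6), RNASEH2C at 7.83 (next 5.59) and NALT1 at 1.24 (next 0.73). Library 1 at S4 was the highest for BICD1P1 at 3.87 RPKM (next 2.21), ACTBP14 at 4.18 (next 2.59), TRIB3 at 1.56 (next 0.991), SNHG15 at 10.6 (next 7.14) and AC103746.1 at 4.12 (next 2.43). Library 3 at S0 was the highest for VEGFA at 11.5 RPKM (next 7.42) and HK2 at 7.62 (next 4.16).

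In the controls, library 1 at S0 was the highest for NR2F1-AS1 at 1.2 RPKM (next 0.693). Library 1 at S2 was the highest for PSAT1 at 1.45 (next 1.07) and MCM6 at 1.11 (next 0.908). Library 1 at S4 was the highest for BRWD1P1 at 9.58 (next 3.35), JUND at 105 (next 63.9) and LIG1 at 4.6 (next 3.14), and the lowest for SLC26A4 at 0.277 (next 0.492). Library 1 at S6 was the highest for RN7SKP203 at 8.64 (next 5.2), FDFT1 at 1.95 (next 1.51) and RPL41 at 41.2 (next 23.2).

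For 2 named genes every knockdown library lay on one side of every control in synchronised cells and on the other side in asynchronous cells. CDKN1A had a log2 difference of 0.506 in asynchronous cells and -1.05 in synchronised cells, and UNG had -0.32 in asynchronous and 0.871 in synchronised cells. These differences between the experiments were not tested.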

How the results depend on the processing

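LUCAT1 stayed lower and called in the alternatives that tested it over the 4 points; it did not reach 1 RPKM in 2 libraries and is not protein-coding, so those 2 alternatives hold no LUCAT1 value. For the mean over points, all calls, higher calls and lower calls were 4028, 2850 and 1178 with the replicate block, 1034, 758 and 276 without the LUCAT1 libraries numbered 2 at S0 and S2, and 1496, 904 and 592 for protein-coding genes of at least 1 RPKM. Higher calls were 2885 with no filter, 895 with median scaling and 922 with quantile normalization, and lower calls were 1390 with median scaling. Leaving out each library gave 1446 to 3770 calls, 1043 to 2603 higher and 403 to 1167 lower. Same-numbered libraries were not paired in the main fit, which took all 16 libraries as independent. Yet 24 of 39 pairs had correlated deviations over 0.1 (-0.28 to 0.81). With 2 libraries per group the deviations mirror each other, so pairs of different number can repeat the same r. The LUCAT1 libraries at S0 and S2 had an r of 0.81, and the controls at S2 and S6 had 0.75. The p-values of the main fit do not allow for such correlation. Among others, the block called CETN3 (adjusted p 0.022) and NR2F1 (0.023) and lost ZFAS1 (0.053). At S0, calls were 21 with no filter, 3 at 1 RPKM, 286 with the replicate block, 18 fitted alone, 2 without the 2 libraries and 9 with limma-voom. At S2 they were 1 with a pseudocount of 0.1, 798 with the block and 0 with a pseudocount of 1, no filter, 1 RPKM, either scaling, no trend, the point alone, without the 2 libraries and with limma-voom. At S4 they were 4 with a pseudocount of 1, 3 at 1 RPKM, 2 with either scaling, 164 with the block, 0 alone, 41 without the 2 libraries and 5 with limma-voom. At S6 they were 13 with no filter, 1 with either scaling, 129 with the block and 6 without the 2 libraries. Leaving out each library gave 0 to 49, 0 to 4, 0 to 26 and 0 to 6 calls at S0, S2, S4 and S6, 0 to 0 among points, and -1.06 to -0.91 for LUCAT1. NR2F1-AS1 reversed to -0.12 with median scaling, -0.14 with quantile normalization and ranged from -0.041 to 0.11 with a library left out; AC116021.1 reversed to -0.12 and -0.14 and ranged from -0.084 to 0.16. Of 3513 values of named genes under alternatives, 3023 kept direction and call, 464 lost the call, 14 gained it and 12 reversed. Of 120 called named genes 80 kept the call with any 1 library left out. The cause of these changes was not tested, except that fewer libraries or genes entered some fits. Weak genes such as LUCAT1 rest on few reads, which limits their precision.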

Other observations

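The genes in the following sentences were chosen after their values were seen and are given as descriptions from the fit over the 4 points. The lower genes included ID1, ID3, FST, IGFBP3 and SFRP1, and the higher ones NFE2L3, TWNK, DDX21 and PCF11. ID1 and ID3, which encode inhibitors of basic helix-loop-helix factors, averaged 45.4 ± 19.7 and 48.2 ± 25.3 RPKM in knockdown libraries, against 95.1 ± 31.7 and 94.9 ± 19.1 RPKM in controls (SD, n = 8 each), with log2 differences of -1.12 and -1.16. FST (follistatin, an antagonist of activin) stood at 17.4 to 28.9 RPKM in knockdown and 36.8 to 56.2 RPKM in control libraries. IGFBP3, which binds insulin-like growth factors, stood at 25.2 to 64.4 RPKM in knockdown and 84.3 to 132 RPKM in control libraries. Both were without overlap, and 0.932% of all tested genes lay below all controls in this way. SFRP1, a secreted WNT antagonist, had a log2 difference of -1.21.

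Among the higher genes, NFE2L3, a relative of NRF2, stood at 0.994 to 7.76 RPKM in knockdown and 0.331 to 0.637 RPKM in control libraries. TWNK, the helicase of mitochondrial DNA, stood at 3.28 to 11.1 RPKM in knockdown and 1.04 to 2.42 RPKM in control libraries, and DDX21, a nucleolar helicase, at 6.72 to 25.4 RPKM in knockdown and 2.56 to 4.61 RPKM in control libraries. PCF11, a factor of transcription termination, had a log2 difference of 1.41 ± 0.17, at 1.88 to 5.58 RPKM in knockdown and 0.671 to 1.39 RPKM in control libraries. None of these 4 genes had overlapping groups, and 4.18% of all tested genes lay above all controls in this way. The 4 were chosen after their values were seen, so this is no result about them.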
